A study of Mus musculus with 8 samples.

Results

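The 395 regions described here were more accessible in regulatory T cells (Tregs) of visceral adipose tissue (VAT) of both sexes than in spleen Tregs and in conventional CD4 T cells of VAT. They were selected from 45402 distinct autosomal regions, of which they make up 0.870%, on the same counts that are given below. Counts were scaled to counts per 1000000 (CPM) of all autosomal region counts in a library. A region was taken when all 4 VAT Treg libraries lay above all 4 other libraries, and when the male and the female mean were each at least 1.5 times the spleen Treg mean and 1.5 times the VAT CD4 mean. In addition, the male to female ratio had to lie from 0.67 to 1.5 and the mean of the VAT Treg libraries had to reach 2 CPM. The first condition alone was met by 1703 autosomal regions (3.75%). The height of these regions in VAT Tregs is therefore the criterion of selection, and their values in VAT Tregs are given as a description without a test.

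The assay was ATAC-seq: a transposase inserts sequencing adapters into DNA that is not packed into closed chromatin, and the inserts are counted per region. There were 4 groups of 2 libraries: RFP+ Tregs from male VAT, RFP+ Tregs from female VAT, RFP+ Tregs from male spleen and RFP- CD4 T cells from male VAT. All mice were C57BL/6 and carried the Foxp3RFP reporter, in which a red fluorescent protein marks cells that express Foxp3, so every group shares the reporter allele. No treatment and no age is given in the labels. Each library was made from sorted cells pooled from 3 mice, so that the spread within a group is between pools. Both comparison groups were male, so for the female VAT Tregs tissue or cell type and sex cannot be told apart. In these bulk libraries a larger share of cells with an open region and a more open region in each cell cannot be told apart either.

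Tregs restrain other immune cells and depend on the transcription factor Foxp3. Those resident in visceral fat are an effector population that needs the transcription factor PPARγ and responds to the alarmin IL-33 through its receptor ST2, and they are known to differ between male and female mice. An accessible region away from a gene start is often an enhancer, where transcription factors bind and act on genes that may lie far away.

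A start site of a RefSeq gene lay inside 12 of the 382 members that could be compared with the annotation (3.14%). The windows around such starts are the stretches of the members for which sequence was read, from the RefSeq promoter table of build GRCm38.p6. Of these, 4 are shown, all from regions that are described below. The Tnfrsf18 member, described below as well, has a window at Gm16008 that is not shown and held no motif match. Tnfrsf9 (chr4:150927749-150928048, plus strand) and Hopx (chr5:77115074-77115373, minus strand) are whole windows from 250 bases before to 50 bases after the start. For the member assigned to Ifngr1 the part shown lies at the start of the predicted gene Gm33104 (chr10:19494497-19494692, plus strand), and for the member assigned to Incenp it lies at the start of Gm36913 (chr19:9939186-9939317, minus strand). Capitals mark matches to motif letters, searched on both strands.
Tnfrsf9 window: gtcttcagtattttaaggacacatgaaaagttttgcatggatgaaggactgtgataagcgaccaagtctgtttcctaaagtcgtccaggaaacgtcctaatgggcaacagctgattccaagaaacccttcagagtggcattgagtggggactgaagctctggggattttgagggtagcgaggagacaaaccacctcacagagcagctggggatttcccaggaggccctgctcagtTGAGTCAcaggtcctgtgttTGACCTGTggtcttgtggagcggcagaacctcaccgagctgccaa
Hopx window: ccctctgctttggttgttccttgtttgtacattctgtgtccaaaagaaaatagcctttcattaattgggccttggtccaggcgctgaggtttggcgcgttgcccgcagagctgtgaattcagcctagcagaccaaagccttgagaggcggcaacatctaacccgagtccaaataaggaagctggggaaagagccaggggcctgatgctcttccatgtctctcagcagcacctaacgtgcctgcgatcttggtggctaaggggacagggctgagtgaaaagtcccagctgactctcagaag
Ifngr1-assigned member at Gm33104: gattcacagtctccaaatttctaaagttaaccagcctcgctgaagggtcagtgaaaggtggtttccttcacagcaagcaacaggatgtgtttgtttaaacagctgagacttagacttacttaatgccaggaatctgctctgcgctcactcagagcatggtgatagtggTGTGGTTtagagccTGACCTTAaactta
Incenp-assigned member at Gm36913: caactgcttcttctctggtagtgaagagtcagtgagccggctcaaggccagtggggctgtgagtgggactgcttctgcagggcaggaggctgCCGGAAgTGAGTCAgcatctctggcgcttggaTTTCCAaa

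The Tnfrsf9 window holds the AP-1 letters TGANTCA, with the first base at position -15 from the start, and the Gm36913 stretch holds them as well. AP-1 letters occur in 7.81% of 32851 RefSeq promoter windows of 300 bases. NNAGGTCA, the letters of the ROR response element, match in the Tnfrsf9 window and the Gm33104 stretch, against 16.2% of all windows. AAAGGTCA, the NR4A letters also searched, is a case of NNAGGTCA and matched in neither. The RUNX letters TGTGGTT stand in the Gm33104 stretch, against 5.27% of windows, and the ETS letters CCGGAA and the NFAT letters TGGAAA in the Gm36913 stretch, against 14.9% and 21.4%. The last 2 stretches are shorter than 300 bases, so the shares of whole windows are not like for like. The Hopx window held none of the 16 motifs searched, which says only that these letters are not in this stretch.

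Library depth ran from 5669084 counts in VAT CD4 replicate 1 to 15630184 counts in spleen Treg replicate 2 over the autosomal regions. The labels were checked on the sex chromosomes, which the selection did not use. The region of the Y-linked gene Uty held 242 and 141 counts in the male VAT Treg libraries and 0 and 0 in the female ones, against 92 and 249 in spleen Tregs and 73 and 132 in VAT CD4 cells. A region at Foxp3 (chrX:7582208-7585993) reached 19.8 and 14.2 CPM in male and 27.7 and 34.0 CPM in female VAT Tregs, against 13.8 and 14.5 CPM in spleen Tregs and 1.41 and 2.10 CPM in VAT CD4 cells. The RFP+ libraries all lay above the RFP- ones there, as in 4 of the 6 Foxp3 regions in all. At chrX:7572009-7576644 the groups overlapped, with 25.1 to 58.5 CPM in VAT Tregs, 28.1 and 41.7 CPM in spleen Tregs, and 29.6 and 35.1 CPM in VAT CD4 cells. The low region at chrX:7565611-7565716 had 1.19 to 2.53 CPM in VAT Tregs, 0.123 and 0.0640 CPM in spleen Tregs, and 0.706 and 0.140 CPM in VAT CD4 cells. Both spleen Treg values and that of VAT CD4 replicate 2 were below 3 counts (0.370, 0.192 and 0.419 CPM). The order of spleen Tregs and VAT CD4 cells there cannot be read. Summed CPM over regions of 9 of 10 B cell marker genes was 357 to 451 in VAT Tregs, 444 and 451 in spleen Tregs, and 337 and 423 in VAT CD4 cells. For 8 of 14 myeloid marker genes it was 211 to 292 in VAT Tregs, 270.3 and 298 in spleen Tregs, and 204 and 255 in VAT CD4 cells. For 8 of 15 stromal and endothelial marker genes it was 222 to 232 in VAT Tregs, 244 and 234 in spleen Tregs, and 223 and 214 in VAT CD4 cells. The B cell and myeloid sums of VAT Tregs overlapped those of both other groups, and the stromal sums overlapped those of VAT CD4 cells and lay below those of spleen Tregs. Ms4a1, Lyz2, Csf1r, Pdgfrb and Dcn, defining genes of those cells, have no region in the table.

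Member by member, accessibility differed mostly by modest amounts. The mean of the VAT Treg libraries ran from 2.01 to 78.1 CPM with a median of 4.15 CPM, against a median of 1.89 CPM in spleen Tregs and 1.47 CPM in VAT CD4 cells. The ratio of the VAT Treg mean to the mean of the 4 other libraries had a median of 2.46 and ran from 1.55 to 6.35, beside a median of 1.02 over all autosomal regions. In 149 members the smallest of the 4 ratios between groups was at least 2, and in 14 it was at least 3.

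Added up, the members held 3849 and 2756 CPM in male VAT Tregs and 2924 and 2911 CPM in female VAT Tregs, against 1406 and 1554 CPM in spleen Tregs and 1046 and 1435 CPM in VAT CD4 cells. Replicate 1 of the male VAT Tregs stood above the other 3 VAT Treg libraries, and VAT CD4 replicate 1 was the lowest of the 8. Male replicate 1 was the highest of the 4 VAT Treg libraries in 255 members (64.6%), male replicate 2 in 27, and the female replicates in 60 and 53. In that library, regions under 1000 bp took 5.53% of the counts, against 4.12% to 4.26% in the other VAT Treg libraries, 4.12% and 4.16% in spleen Tregs and 3.55% and 3.97% in VAT CD4 cells. The part of this in the selection was not tested. Without male replicate 1 the same rule gave 408 regions, of which 284 were among the 395.

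**Figure D1:**
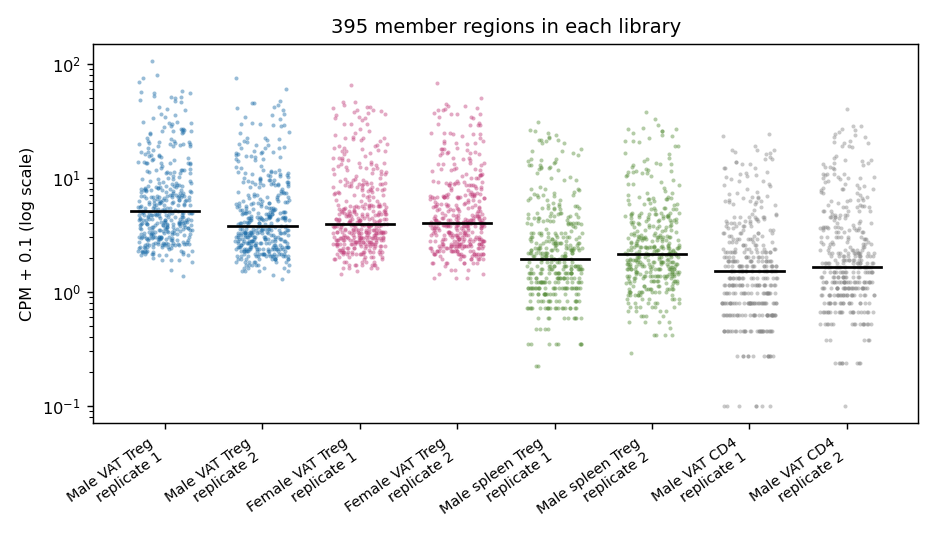
CPM of the 395 member regions in each of the 8 libraries, plotted as CPM + 0.1 on a log axis, with points for members, bars for medians, and male and female VAT Treg libraries at the left and spleen Treg and VAT CD4 libraries to their right. The median of male VAT Treg replicate 1 was 4.99 CPM and those of the other VAT Treg libraries 3.69 to 3.89 CPM, against 1.85 and 2.05 CPM in spleen Tregs and 1.41 and 1.54 CPM in VAT CD4 cells.

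Counts behind single members were low. The median member had 75 and 34 counts in male VAT Tregs and 38 and 32 counts in female VAT Tregs, against 15 and 32 counts in spleen Tregs and 8 and 11 counts in VAT CD4 cells. In VAT CD4 replicate 1, 7 members had a count of 0, which allows up to 0.529 CPM, and in replicate 2 the same held for 1 member, with a limit of 0.419 CPM. These limits, at 3 counts, cover counting error only.

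Members were mostly short regions, and few held a gene start. Of the 395, 352 (89.1%) were under 1000 bp wide, against 36.2% of all autosomal regions, and 23.7% of those with a VAT Treg mean of 2 CPM or more. Their median width was 221 bp, against 2619 bp over all autosomal regions. Put the other way, members were 2.14% of all regions under 1000 bp and 0.148% of the wider ones. A start site lay inside 3.14% of members, against 20.6% of all regions. Under 1000 bp, a start site lay inside 2.35% of members, against 6.85% of regions that reach 2 CPM. The median distance to the nearest start was 17660.5 bp for members and 19179.5 bp for all regions. Under 1000 bp, this distance was 17706.5 bp for members and 15505 bp for regions that reach 2 CPM. Of members with a placed gene, 59.1% lay inside the gene they were assigned to, against 61.1% of all regions. The part of width and of the low counts of narrow regions in a rule on ratios was not tested.

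The members were assigned to 449 genes by the deposited table, which names genes by its own rule, and 73 members had several genes. Ets1, a transcription factor of lymphocytes, Myo3b, Ninj2, Rad51b and Rnf157 had 3 members each and another 34 genes had 2. All 3 Ets1 members lay 158 to 167 kb from the gene. Of the members, 57 had another within 50 kb and 16 had one within 1 kb, so the 395 are not all separate sites. At Rnf157, which encodes a ubiquitin ligase, the member at chr11:116413810-116414045 had 6.72 and 3.47 CPM in male and 5.81 and 4.49 CPM in female VAT Tregs, against 1.601 and 0.704 CPM in spleen Tregs and 0.706 and 1.12 CPM in VAT CD4 cells.

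JAK kinases and STAT transcription factors carry the signal of cytokine receptors to the nucleus, and SOCS proteins restrain it. Of 98 regions at 17 genes of this kind, 7 were members (7.14%), among them 2 at Jak2 and those at Stat3 and Socs5. Over all 23 gene lists looked at, 40 of 1714 regions were members (2.33%), and over all autosomal regions 0.870%. Some genes stand in several lists. The lists also hold more short regions than the whole set: 60.2% of the regions at STAT and SOCS genes were under 1000 bp, against 36.2% of all. Of regions under 1000 bp, 5 of 59 at these genes were members (8.47%), against 2.14% of all such regions. Both shares count regions below the 2 CPM that a member must reach. Of all 16417 autosomal regions under 1000 bp, 8982 reached it and 352 were members. The 59 regions were not split by this level. The lists were drawn up with earlier results of these data known, and regions at these genes were not compared with others by a test.

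Stat3, which acts downstream of IL-6, IL-10 and IL-21, had the widest gap of all members. Its member within the gene (chr11:100934078-100934471) had 6.78 and 4.34 CPM in male and 3.77 and 4.25 CPM in female VAT Tregs, against 0.246 and 0.448 CPM in spleen Tregs and 1.06 and 1.40 CPM in VAT CD4 cells. The lowest VAT Treg library, with 0.5 CPM added to both, was 2.25 times the highest other library, and the ratio of means was 6.08. That ratio rests on 2 and 7 counts in spleen Tregs and 6 and 10 counts in VAT CD4 cells. Spleen Treg replicate 1 was below 3 counts (0.370 CPM). Jak2, a kinase of several cytokine receptors, had a narrow member (chr19:29256451-29256817) with 5.72 and 4.34 CPM in male and 4.48 and 6.68 CPM in female VAT Tregs, against 1.35 and 2.18 CPM in spleen Tregs and 1.94 and 1.68 CPM in VAT CD4 cells. At Stat3 male replicate 1 was the highest library, while at this Jak2 region female replicate 2 was. The wide Jak2 member (chr19:29269488-29273145) had 50.7 and 34.0 CPM in male and 36.9 and 36.4 CPM in female VAT Tregs, against 21.2 and 23.4 CPM in spleen Tregs and 16.2 and 25.2 CPM in VAT CD4 cells. At Socs5 (chr17:87117265-87120980) the values were 55.3 and 47.1 CPM in male and 36.0 and 44.3 CPM in female VAT Tregs, against 21.6 and 24.4 CPM in spleen Tregs and 11.99 and 14.3 CPM in VAT CD4 cells.

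**Figure D2:**
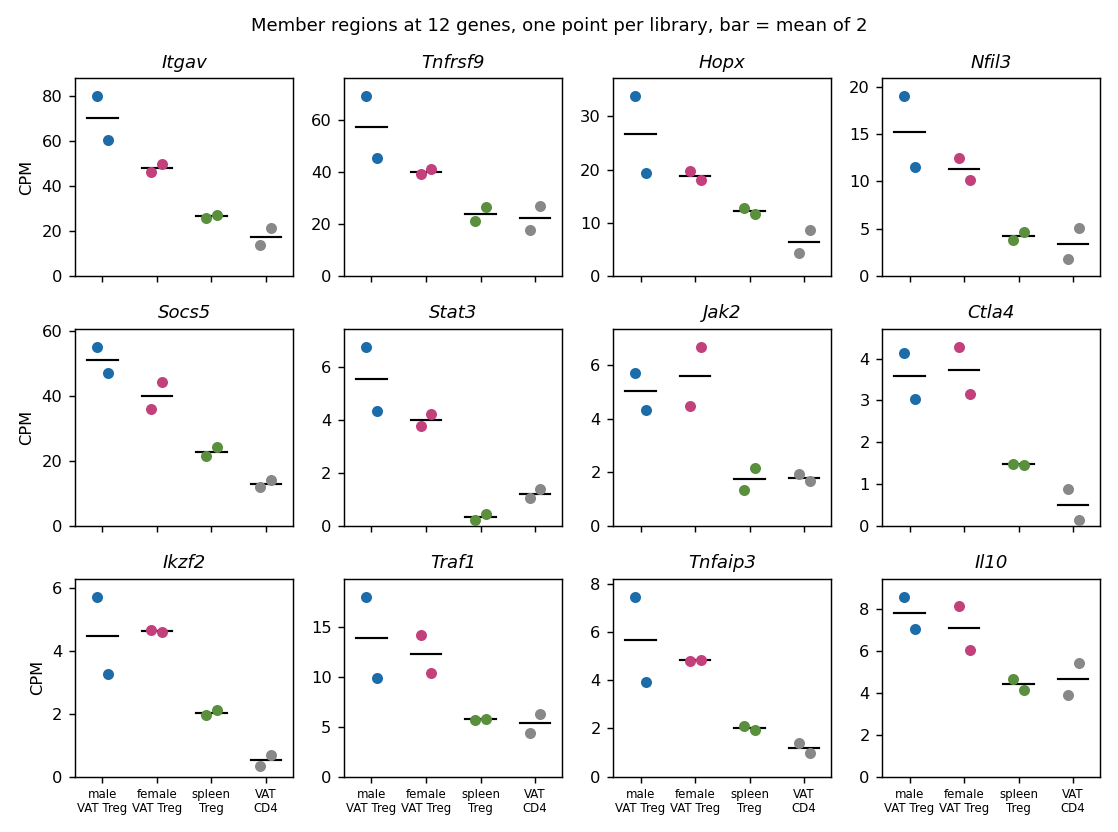
CPM in each of the 8 libraries for the member of widest gap at each of 12 genes, on linear axes that start at 0, with points for libraries, bars for the mean of 2, and the groups in the order male VAT Treg, female VAT Treg, spleen Treg, VAT CD4. In every member plotted the 4 VAT Treg points lie above the other 4, which is what selected it. Stat3 has the widest gap by the measure given above, and at Il10 the gap is narrow.

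Cytokine receptors held 4 members of 161 regions (2.48%). Ifngr1, a chain of the interferon gamma receptor, had 2, and the one whose sequence is shown above had 6.05 and 4.89 CPM in male and 4.59 and 3.40 CPM in female VAT Tregs, against 2.22 and 1.66 CPM in spleen Tregs and 1.76 and 1.40 CPM in VAT CD4 cells. It lay 97.2 kb from Ifngr1. Ifnar1, a chain of the type I interferon receptor, and Il4ra, a receptor chain for IL-4 and IL-13, had 1 each. Il4ra (chr7:125554515-125554700) had 5.65 and 4.45 CPM in male and 4.18 and 3.76 CPM in female VAT Tregs, against 2.34 and 2.56 CPM in spleen Tregs and 1.76 and 2.52 CPM in VAT CD4 cells. None of 11 regions at Il1rl1, which encodes ST2, was a member.

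Genes of the TNF receptor family and of costimulation, the second signal that T cells need, held 6 members of 155 regions (3.87%). They were assigned to Tnfrsf9, Tnfrsf18, Traf1, Traf3, Icos and Ctla4, and the Icos member lay 54.1 kb from the gene. The region over the start of Tnfrsf9, the gene of the receptor 4-1BB, had 69.0 and 45.4 CPM in male and 38.9 and 40.9 CPM in female VAT Tregs, against 20.9 and 26.6 CPM in spleen Tregs and 17.5 and 26.7 CPM in VAT CD4 cells (chr4:150923196-150929255). Its promoter window is the first sequence above. At Traf1, an adaptor of these receptors, the member within the gene (chr2:34958014-34958401) had 18.02 and 9.88 CPM in male and 14.3 and 10.4 CPM in female VAT Tregs, against 5.67 and 5.82 CPM in spleen Tregs and 4.41 and 6.29 CPM in VAT CD4 cells. Male replicate 1 was highest in both regions.

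The Treg core list held 3 members of 105 regions (2.86%). Ctla4, an inhibitory receptor of Tregs, had one 21.7 kb from the gene (chr1:60887096-60887293), with 4.12 and 3.04 CPM in male and 4.28 and 3.16 CPM in female VAT Tregs, against 1.48 and 1.47 CPM in spleen Tregs and 0.882 and 0.140 CPM in VAT CD4 cells. Ikzf2, which encodes Helios, had one within the gene (chr1:69599481-69599672), with 5.72 and 3.26 CPM in male and 4.69 and 4.61 CPM in female VAT Tregs, against 1.97 and 2.11 CPM in spleen Tregs and 0.353 and 0.699 CPM in VAT CD4 cells. In both, the spleen Treg libraries lay between the other groups. VAT CD4 cells had only 5 and 1 counts at the Ctla4 member and 2 and 5 counts at the Ikzf2 member. Neither member was called in the test of spleen Tregs against VAT CD4 cells given below. Tnfrsf18, the gene of the costimulatory receptor GITR, shares the third with Gm10560 and Ttll10, and there the spleen Treg libraries, at 22.2 and 25.9 CPM, lay between the VAT CD4 libraries, at 17.5 and 28.1 CPM.

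The list of genes known from VAT Tregs held 4 members of 160 regions (2.50%), at Itgav (2), Nfil3 and Il10. Pparg (6 regions), Klrg1 (10), Gata3 (13), Prdm1 (16), Rora (24), Batf (5) and Ccr2 (2) had no member. Of the 160 regions, 28 had all 4 VAT Treg libraries above the other 4 and 17 of these met the folds, but 11 of the 17 had a male to female ratio over 1.5 and were left out by it. At Rora, 5 regions met the folds and 4 of them had a male to female ratio over 1.5, while both such regions at Il1rl1 did. Over all autosomes 776 separated regions met the folds, with 274 above the ratio of 1.5 and 8 below 0.67.

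Itgav encodes the alpha v integrin chain, which with its partners activates latent TGF-beta. Its wide member (chr2:83690893-83700052), 22.3 kb from the gene, had 79.8 and 60.3 CPM in male and 46.0 and 49.7 CPM in female VAT Tregs, against 25.9 and 27.2 CPM in spleen Tregs and 13.8 and 21.1 CPM in VAT CD4 cells. The adjoining member (chr2:83700448-83701371) had 74.7 and 45.1 CPM in male and 45.7 and 42.4 CPM in female VAT Tregs, against 24.4 and 32.6 CPM in spleen Tregs and 10.2 and 18.5 CPM in VAT CD4 cells. Both male libraries lay above both female ones in the wide member, and not in the adjoining one. Of the integrin partners, Itgb3 had 1 member. Nfil3, a basic leucine zipper factor, had one 15.7 kb from the gene (chr13:52998573-52998988), with 19.02 and 11.5 CPM in male and 12.4 and 10.2 CPM in female VAT Tregs, against 3.82 and 4.61 CPM in spleen Tregs and 1.76 and 5.03 CPM in VAT CD4 cells. Il10, the gene of a suppressive cytokine, had 1 member of 13 regions (chr1:131022567-131022953), with 8.58 and 7.06 CPM in male and 8.15 and 6.07 CPM in female VAT Tregs, against 4.68 and 4.16 CPM in spleen Tregs and 3.88 and 5.45 CPM in VAT CD4 cells. The gap at Il10 was narrow, between 6.07 CPM in female replicate 2 and 5.45 CPM in VAT CD4 replicate 2.

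Among genes tied to helper T cell types, Th2 genes held 4 members of 58 regions (6.90%), Th1 and cytotoxic genes 3 of 68 (4.41%) and Th17 genes 1 of 41 (2.44%). The Rad50 member (chr11:53663305-53663472) lies in the gene that holds the locus control region of the Th2 cytokines in mice, and had 5.05 and 2.06 CPM in male and 2.75 and 3.76 CPM in female VAT Tregs, against 1.11 and 1.73 CPM in spleen Tregs and 0.176 and 0.559 CPM in VAT CD4 cells. A member assigned to Cx3cr1 and Ccr8, both chemokine receptor genes (chr9:120073265-120076106), had 27.9 and 18.2 CPM in male and 21.2 and 20.9 CPM in female VAT Tregs, against 12.4 and 13.1 CPM in spleen Tregs and 6.17 and 12.9 CPM in VAT CD4 cells. Hopx, a homeodomain protein without DNA binding of its own, had a member over its start (chr5:77113500-77116441), with 33.8 and 19.4 CPM in male and 19.8 and 17.97 CPM in female VAT Tregs, against 12.8 and 11.6 CPM in spleen Tregs and 4.23 and 8.53 CPM in VAT CD4 cells. Its promoter window is the second sequence above. Ahr was the Th17 list's gene with a member, and Runx3 and Stat4 were the other Th1 genes.

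The remaining lists held up to 4 members each. Chemokine receptors held 2 of 65 regions (3.08%), the one at Cx3cr1 and Ccr8 and one at Ccr1. Adhesion and integrin genes held 3 of 135 (2.22%), all at Itgav and Itgb3. NF-kB genes held 4 of 114 regions (3.51%), with 2 assigned to Tnfaip3, the gene of the inhibitor A20, and 1 each to Rel and Birc2. The Tnfaip3 member at chr10:19078140-19078419 lay 62.7 kb from the gene and the other within it. The Rel member lay 52.3 kb from Rel. Activation and exhaustion factors held 2 of 143 (1.40%), both at Tox, and T cell receptor signalling genes 2 of 170 (1.18%), against 0.870% of all autosomal regions. AP-1 and IRF factors (Fosl2), lipid metabolism genes (Dgat1), repair and suppressive effectors (Il10) and stromal and endothelial markers (Pecam1) held 1 each (0.990% to 3.70%). Naive and homing genes (97 regions), nuclear receptors (109), and B cell (20), myeloid (21), CD8 and NK (13) and adipocyte markers (24) held none.

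**Figure D3:**
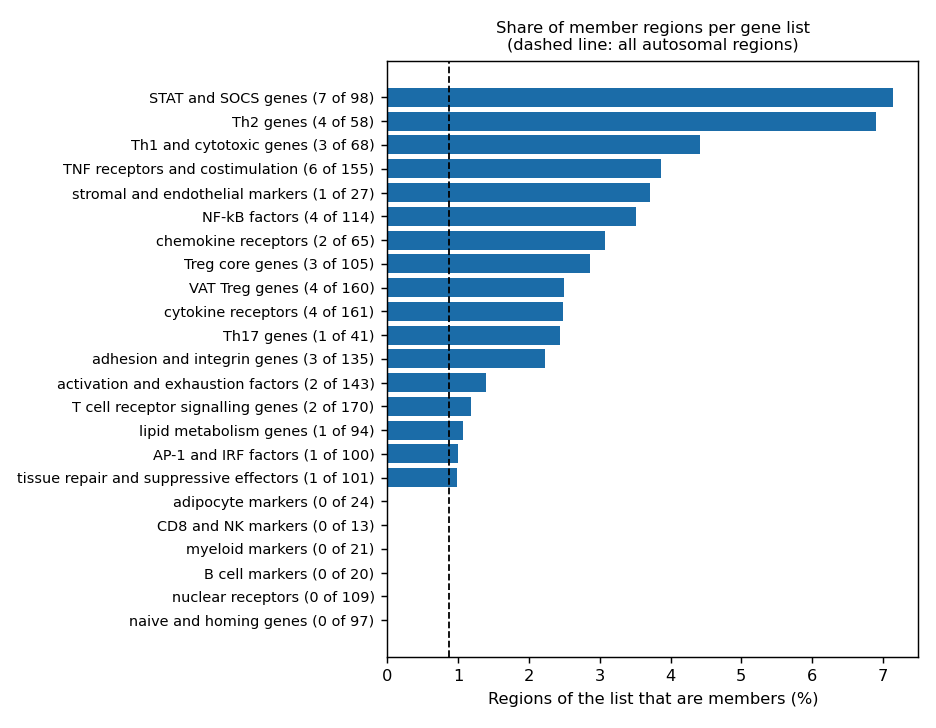
Share of member regions in each gene list, as a percentage of the list's autosomal regions, with the dashed line at the 0.870% of all autosomal regions. STAT and SOCS genes had 7.14% and Th2 genes 6.90%, and the smaller lists rest on few regions. The line is not a like comparison for lists rich in regions under 1000 bp, of which 2.14% were members over all autosomes. That share, too, counts regions below the 2 CPM that a member must reach.

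Among the widest gaps were those at Stat3, Sorl1, Myo1d, Larp4 with Dip2b, Myo1g, Nfil3, Fnbp1, Rnf157 and Rhbdd1. Sorl1, a sorting receptor of the endosome, had 5.12 and 2.39 CPM in male and 2.55 and 2.79 CPM in female VAT Tregs, against 0.739 and 0.896 CPM in spleen Tregs and 0.706 and 0.559 CPM in VAT CD4 cells (chr9:42101318-42101569). Myo1g, a myosin of lymphocytes, had 18.9 and 9.66 CPM in male and 14.3 and 11.7 CPM in female VAT Tregs, against 3.20 and 4.73 CPM in spleen Tregs and 3.88 and 3.91 CPM in VAT CD4 cells (chr11:6522769-6523278). Incenp, a protein of the chromosomal passenger complex in cell division, was assigned the member whose sequence is shown last above (chr19:9938756-9939317), with 26.9 and 16.3 CPM in male and 18.1 and 16.8 CPM in female VAT Tregs, against 6.28 and 7.29 CPM in spleen Tregs and 5.82 and 9.92 CPM in VAT CD4 cells. Male VAT Treg replicate 1 was the highest library in all 3 of these regions. The highest of all members by VAT Treg level was assigned to the predicted gene Gm4832 (chr17:88110022-88114897), with 105 and 75.1 CPM in male and 64.6 and 67.4 CPM in female VAT Tregs, against 31.0 and 37.8 CPM in spleen Tregs and 23.1 and 39.7 CPM in VAT CD4 cells. The other members among the 10 highest were both at Itgav and those at Tnfrsf9, Socs5, Xylt1, AI839979, Specc1l, Ankrd55 and Kcnj15.

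Between the sexes the members were chosen to be alike within a ratio of 0.67 to 1.5, so their ratios are a description. The male mean was higher in 276 members (69.9%) and the female mean in 119, against a higher male mean in 53.2% of all autosomal regions. The median ratio was 1.11 in members and 1.02 in all regions. Both male libraries exceeded both female ones in 83 members (21.0%), against 22.3% of all autosomal regions, and both female libraries exceeded both male ones in 33 (8.35%), against 18.5%. The direction of the median depended on 1 library: the median of the log2 male over female difference was 0.15, and -0.10 without male VAT Treg replicate 1.

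The rule set no condition between spleen Tregs and VAT CD4 cells, and this was the one contrast tested, in a fit over all regions. It did use the values of both groups, as upper limits, which bound how far either can lie above the other in a member. The members' counts of calls, and the errors and adjusted p-values of single members below, are therefore given as a description. These groups differ in tissue and in cell type, which cannot be told apart. Over the 395 members 8 were called higher in spleen Tregs (2.03%) and 4 lower (1.01%) by edgeR's quasi-likelihood test at an adjusted p of 0.05. Over all 45709 regions tested, 865 were called higher (1.89%) and 945 lower (2.07%). The low count filter of this fit used all 8 libraries, including the VAT Treg libraries that selected the members. On the 4 libraries of the 2 compared groups alone, 265 of the 395 members passed it, and 42253 regions in all. The members' percentages therefore rest in part on members that passed through VAT Treg counts. Among autosomal regions under 1000 bp with 2 CPM or more in VAT Tregs, 3.33% were called higher and 3.89% lower. The median log2 fold change of members was 0.15 with 61.0% above 0, against 0.00 over all autosomal regions and 0.09 over those short regions. On plain CPM, without the TMM scaling of the fit, spleen Treg means were above VAT CD4 means in 287 members (72.7%) and in 65.6% of all autosomal regions. DESeq2 called 1 member higher and 1 lower. Without spleen Treg replicate 1 edgeR called 4 members higher and 2 lower, without spleen Treg replicate 2 it called 2 and 2, without VAT CD4 replicate 1 it called 3 and 4, and without VAT CD4 replicate 2 it called 9 and 1. Leaving out female VAT Treg replicate 2, which enters the estimate of spread, gave 5 and 2, and leaving out male VAT Treg replicate 2 gave 13 and 4.

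Sult2b1, a sulfotransferase gene, shares with Lmtk3 a member that was higher in spleen Tregs. It had 6.19 to 8.74 CPM in VAT Tregs, 4.68 and 5.12 CPM in spleen Tregs, and 1.06 and 0.839 CPM in VAT CD4 cells (chr7:45766043-45766364). The log2 fold change was 2.23 ± 0.44 (SE), with an edgeR adjusted p of 0.000146. The member at the predicted gene Gm19557 and Obfc1, which encodes a telomere-capping protein, was lower in spleen Tregs. It had 10.6 to 19.5 CPM in VAT Tregs, 2.34 and 2.88 CPM in spleen Tregs, and 6.00 and 7.97 CPM in VAT CD4 cells (chr19:47512790-47513317). There the log2 fold change was -1.55 ± 0.31 (SE), with an edgeR adjusted p of 0.000156. These 2 kept their call in each of the 16 alternatives run for them, which reuse the libraries that selected the members.

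Each of the other 10 calls was lost in at least 4 alternatives. The Itgav member at chr2:83700448-83701371 was higher in spleen Tregs, with a log2 fold change of 0.84 ± 0.21 (SE) and an edgeR adjusted p of 0.00454, and so was Socs5, with 0.66 ± 0.21 (SE) and an edgeR adjusted p of 0.0484. Thap1, Ntng2, Gm20367 with Nupr1, A530013C23Rik and Eya3 were higher by 2.32, 1.97, 1.89, 1.71 and 1.19 on the log2 scale. Hip1r with Vps37b, Gm11981 and Clic4 had log2 fold changes of -2.27, -1.47 and -0.91. At Clic4 the groups overlapped, with 4.31 and 4.67 CPM in spleen Tregs and 4.41 and 10.6 CPM in VAT CD4 cells. Stat3 had 0.246 and 0.448 CPM in spleen Tregs and 1.06 and 1.40 CPM in VAT CD4 cells, and the difference did not pass the test (log2 fold change -1.85 ± 0.67 (SE), edgeR adjusted p 0.104).

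**Figure D4:**
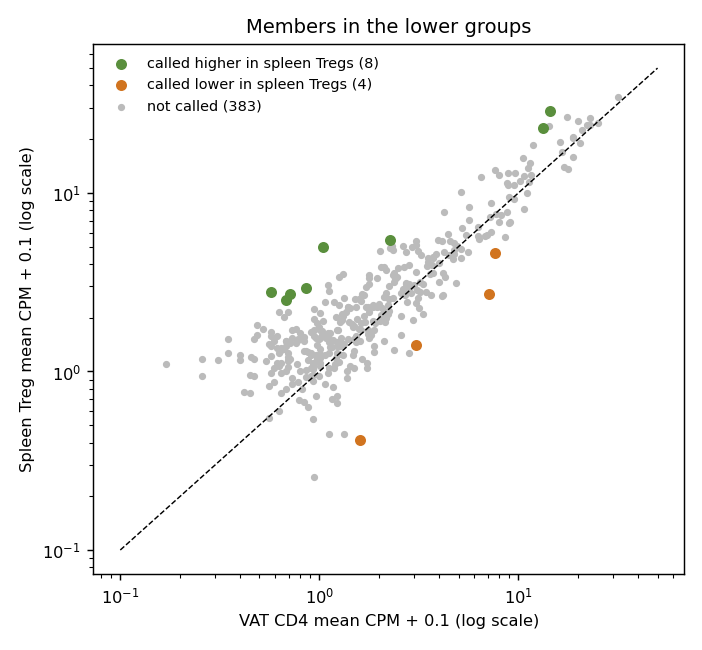
Mean CPM of each member in spleen Tregs (y axis) against VAT CD4 cells (x axis), both as CPM + 0.1 on log axes, with a dashed line where they are equal and the members called higher and lower by edgeR marked. The 8 called higher lie above the diagonal and the 4 called lower lie below it.

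At the edges of the rule, members and left-out regions were close. For the smallest group ratio the nearest inside was Arf3 with Wnt10b and Wnt1 at 1.501 and the nearest outside Cenpe at 1.4999. For the male to female ratio the nearest below 1.5 was Rgs2 at 1.49 and the nearest above it Fut8 at 1.50005, while around 0.67 they were Khdrbs1 at 0.677 and Tgfb1 with Ccdc97 at 0.634. For the level, Ptprt had 2.01 CPM and Mdfic 1.998 CPM. The ratio between sexes kept out 213 regions that met every other condition, 209 of them higher in males, and the 2 CPM minimum kept out 99.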

How the data were processed

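The authors deposited raw counts per region for the 8 libraries, and log2 CPM values per library. Per the submitters' processing notes, Subread 1.6.2, HOMER 4.9, featureCounts and limma were used and the builds were GRCm38 and mm10. How regions were called and reads filtered is not given in the sources used here. Entries of the table were reduced to 46624 distinct regions, 45402 of them on autosomes. CPM is the count over the library's sum on autosomal regions.

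Spleen Tregs were compared with VAT CD4 cells with edgeR 4.0.16 (R 4.3.3) by quasi-likelihood, with TMM scaling, filterByExpr, all 8 libraries in the fit and Benjamini-Hochberg adjustment over 45709 regions. The script was tested on simulated data. limma 3.58.1 on the deposited log2 values and DESeq2 1.42.0 served as alternatives. The main fit did not pair samples by replicate number. The correlations of replicate differences between groups were -0.146 to 0.0666. Such values cannot exclude shared mice or sort days, because counting noise lowers them too, and the labels do not give either.

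The members and the gene lists were chosen with earlier results of these data known. Named members were the 10 of widest gap, the 10 of highest VAT Treg CPM, up to 4 per list, the genes with most members, a fixed set of Treg genes, the called members and those next to each threshold. Some members named by this rule are not reported here. Icos, Incenp and the wide Jak2 region fall outside this rule and were named after their values were seen. Gene starts and promoter windows are from RefSeq, GRCm38.p6, which matched 437 of 458 gene IDs of members. Members on chromosome 18 (13) were not compared with the windows.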

Additional observations from a re-analysis of the deposited data

Results flagged for a closer look

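Of the 45402 autosomal regions, 395 were members (0.870%). On the X chromosome, which the selection left out, 24 of 1083 regions met the same conditions on their values as the autosomal members. They are set apart here because no member lies on that chromosome; all 24 were in the fit of spleen Tregs against VAT CD4 cells, and the Foxp3 regions served to check the labels. At Foxp3, where Tregs have known enhancers, a region (chrX:7566345-7566666) had 7.05 and 3.47 CPM in male and 4.69 and 6.31 CPM in female VAT Tregs, against 2.09 and 3.07 CPM in spleen Tregs and 1.41 and 1.118 CPM in VAT CD4 cells. Sh3kbp1 had 3 of the 24, and its widest (chrX:159675673-159679840) had 33.1 and 21.8 CPM in male and 34.8 and 34.2 CPM in female VAT Tregs, against 15.2 and 19.4 CPM in spleen Tregs and 11.1 and 15.4 CPM in VAT CD4 cells. In females the number of X chromosomes and accessibility cannot be told apart, and VAT Tregs were not tested against the other groups in these regions.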

How the results depend on the processing

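The number of members was 395, and 149 with the fold at 2, 696 with a fold midway between 1 and 1.5, 201 with a minimum of 4 CPM and 244 with the sex ratio narrowed to between 0.8 and its inverse. TMM scaling gave 383 members (357 shared), and scaling on regions under 1000 bp, chosen after seeing the data, gave 335 (267 shared). The planned form took totals and members from regions under 1000 bp only, with the 2 CPM minimum not rescaled. It gave 403, of which 248 were among the 352 members of that width. Leaving out 1 library gave 375 to 564, of which 274 to 382 were among the 395. For spleen Tregs against VAT CD4 cells, 8 members were called higher and 4 lower. The 4 libraries of these groups alone gave 4 and 1, with 265 members tested in place of 395. DESeq2 gave 1 and 1, TMM on regions under 1000 bp 2 and 2, and library size alone 14 and 1. With limma on the deposited log2 values 22 of 378 members tested were called higher. Leaving out 1 library gave 2 to 13 members higher and 1 to 4 lower. Over all regions 865 were called higher and 945 lower. DESeq2 gave 285 and 513, library size alone 1371 and 561, and TMM on regions under 1000 bp 343 higher. Leaving out 1 library gave 237 to 1125 higher and 445 to 1255 lower. The cause was not tested. With the replicate block 6 members were called higher and 4 lower, and 730 and 813 regions in all. Whether libraries with the same replicate number share mice or a sort day is not given. The median male over female log2 difference of members was 0.15, and -0.10 to 0.33 when 1 library was left out, with the negative value without male VAT Treg replicate 1. Shares of motifs over regions were not run, since no genome was used here. With 2 libraries a group and a median of 8 counts a member in VAT CD4 replicate 1, differences of single members between spleen Tregs and VAT CD4 cells have wide errors, with a median SE of 0.53 on the log2 scale.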
